A study of Homo sapiens with 6 samples.

Results

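Interferons are secreted alarm proteins whose receptors activate STAT and IRF transcription factors, which in turn switch on a large set of antiviral genes. Many of these factors bind a DNA element with repeated GAAA letters, the interferon-stimulated response element. Interferon also raises the genes that present peptides on class I molecules at the cell surface, which are usually low in neuroblastoma cells. The genes described here are 8 that belong to this response: the RNA sensor gene DHX58, the ubiquitin-like modifier gene ISG15, the viral entry inhibitor genes IFITM1, IFITM2 and IFITM3, the butyrophilin gene BTN3A3, and the class I genes HLA-E and B2M. They were taken by the symbol that the platform annotation gives to a spot, brought to the current symbol by gene ID. Of the 8, 7 had a spot, and they held 8 of the 9169 spots tested, because IFITM3 had 2. B2M, the light chain of class I molecules, is not analysed here. The set was chosen by the differences between the 2 groups on these same arrays, which were known when it was proposed, so the differences of its members are given as a description and carry no test.

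RNA was measured in SH-SY5Y cells, an established human neuroblastoma line of sympathetic neuroblast type, 7 days into transfection, with 500 µg/ml geneticin as the selecting drug. The vector of the 3 GFP control samples was pEGF-C2 without an insert. That of the 3 DN-TRF2 samples was pIRES2-EGFP with a dominant-negative form of the telomere protein TRF2, so the groups differed in backbone as well as insert and those cannot be told apart. Both groups were transfected, selected cultures, and per the labels' protocols they came from 3 independent experiments handled side by side, each hybridized as radiolabelled cDNA to 1 array. The series title places the study around TRF2 inhibition and the neuronal programme.

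Median intensity over the tested spots ran from 479.9 to 712 on the 6 arrays, and the precision is limited by their number: a difference had a median 95% half-width of 0.38 on the log2 scale. Differences are DN-TRF2 minus GFP control of log2(intensity + 50) after quantile normalization, a scale that understates the change of dim spots, and their errors are standard errors (SE) from limma with 3 arrays per group and no pairing. Of the markers fixed for sympathetic neuroblasts, 12 of 23 had a spot on 24 spots; HAND2 and TH are not analysed here. The markers cannot check the label, because signal compares poorly between spots of different clones. Of the 12, 7 had a higher mean in DN-TRF2 samples (58.3%, against 48% of all named genes), with a median difference of 0.037. By the limma test given below 0 spots passed. An unadjusted p under 0.05 by limma was found at 5 of the 24 spots, against 3.41% of all spots, and the 5 went both ways. TUBB3, the neuronal beta-tubulin gene, differed by -0.48 ± 0.18 and -0.57 ± 0.20 at its 2 spots, and GATA3, a transcription factor gene of sympathetic neurons, by 0.10 ± 0.15, 0.064 ± 0.17 and 0.45 ± 0.15 at its 3. CHGA, a granule protein gene, differed by -0.53 ± 0.20 at the dimmest of its 3 spots and by 0.036 ± 0.15 and 0.060 ± 0.26 at the brighter ones. GAP43, a growth cone protein gene, differed by 0.46 ± 0.18. Each value below is compared between arrays within its own spot.

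For 5 of the 8 genes, RefSeq (GRCh38.p14) gave a window of 300 bases around a transcription start, 250 before it and 50 after; DHX58, IFITM2 and HLA-E had none. These stretches are shown because a pair of GAAA letters with any 2 bases between them, the core of the interferon-stimulated response element, is what the interferon pathway is known to act through. Capitals mark each match, on either strand and with overlaps kept, that ends before the start site.
ISG15: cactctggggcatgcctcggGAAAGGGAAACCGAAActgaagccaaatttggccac
IFITM1: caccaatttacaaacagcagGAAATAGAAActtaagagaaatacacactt
IFITM3: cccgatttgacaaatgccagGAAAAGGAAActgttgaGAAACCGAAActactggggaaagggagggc
B2M: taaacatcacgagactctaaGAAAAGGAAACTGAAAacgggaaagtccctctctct

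The ISG15 stretch lies at chr1:1013364-1013419 on the plus strand and its 2 matches overlap. The IFITM1 stretch lies at chr11:313980-314029 on the plus strand, and a second IFITM1 match runs across the start site itself. The IFITM3 stretch lies at chr11:320866-320932 on the minus strand and holds 2 separate matches. The B2M stretch lies at chr15:44711353-44711408 on the plus strand with 2 overlapping matches. BTN3A3 had 1 match, on the opposite strand and 35 to 44 bases past its start site. All 5 windows thus held the pair, as did 1255 of 35116 windows over 27305 genes (3.57%) and 39 of 64 windows of the interferon-induced effector genes listed below (60.9%). Among class I presentation genes 10 of 41 windows did (24.4%). A match of letters is a description of the window and not a bound site. IFITM2, IFITM1 and IFITM3 follow one another among protein-coding genes on their chromosome, and BTN3A3 lies within a run of butyrophilin genes.

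Across the members the values went both ways, and DHX58 and BTN3A3 stood at the ends. At 6 of the 8 spots the mean was higher in DN-TRF2 samples, with a median difference of 0.13, against 47.3% of all spots with a higher mean and a median of -0.011 over them. The count was 5 with array weights and 7 without normalization between arrays, a setting that moved the median over all spots to 0.021. By limma, at a Benjamini-Hochberg adjusted p under 0.05, 0 of the 9169 spots were called higher or lower (0.00%), so 0 of the 8 were, and 313 spots (3.41%) had an unadjusted p under 0.05. With the replicate number as a block 0 passed as well, at a smallest limma adjusted p of 0.269 (0.999 without the block), and 527 had an unadjusted p under 0.05. That count was 583 with array weights and 81 without normalization, and with 1 array left out it ran from 141 without DN-TRF2 replicate 2 to 792 without GFP control replicate 2. The 2 groups did not overlap at 2 member spots: DHX58, where DN-TRF2 was higher (as at 4.28% of all spots), and BTN3A3, where it was lower (4.43%); in either direction this occurred at 8.70% of spots. The 3 differences by replicate number shared a sign at 4 member spots, against 25.8% of all spots: they were positive at 3 (11.0% of all spots) and negative at 1 (14.7%). Since the members were chosen with this contrast in view, these shares describe them and support nothing.

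DHX58 encodes LGP2, a cytosolic RNA helicase that tunes the RIG-I and MDA5 sensors of viral RNA. Deposited intensity at its spot was 3462, 3754 and 4735 in GFP control replicates 1 to 3, and 5049.95, 5517 and 6758 in DN-TRF2 replicates 1 to 3. All 3 DN-TRF2 samples lay above all 3 controls, and the order of replicate numbers was the same in both groups. The array medians rose in that order too, and the order remained after normalization. The normalized difference was 0.55 ± 0.16 (SE, log2), a 1.46-fold higher level. By replicate number it was 0.57, 0.52 and 0.55. This was a bright spot, at percentile 96 of signal, so the offset had little effect: the difference was 0.55 at an offset of 1 and 0.54 at an offset of 100. DHX58 had only this 1 spot, and what part cDNA of other genes has in its signal was not tested. With 1 array left out it ran from 0.45 without DN-TRF2 replicate 3 to 0.67 without GFP control replicate 3, and it was 0.48 with median scaling.

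BTN3A3 encodes a butyrophilin, a relative of the immunoglobulin-domain proteins that present phosphoantigen signals to gamma-delta T cells. Its spot read 133.11, 100.19 and 169.57 in the GFP control samples and 58.29, 71.49 and 108.63 in the DN-TRF2 samples, in the order of the replicate numbers. Each DN-TRF2 sample lay below the control of its own number, while in deposited intensity DN-TRF2 replicate 3 lay above GFP control replicate 2; after normalization the groups did not overlap. The difference was -0.62 ± 0.15 (SE, log2), and by replicate number -0.91, -0.55 and -0.39. The spot was dim, at percentile 11.6 of signal, and the size depended on the offset: -0.92 at an offset of 1 and -0.46 at an offset of 100. Its direction was the same in each of the 13 alternatives that kept the spot. Butyrophilin genes are close copies of one another, so cDNA of relatives can bind this clone, and what part they have in the signal was not tested.

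The other butyrophilin spots had values of either sign. BTN3A2, its closest measured relative, read 408, 363.5 and 864 in the controls and 745, 813 and 688 in the DN-TRF2 samples. Its groups overlapped through GFP control replicate 3, and the difference was 0.46 ± 0.21 (SE), opposite in sign to BTN3A3 (limma adjusted p = 0.999). The BTN3A2 value depended on single arrays: leaving out GFP control replicate 2 gave 0.30, leaving out replicate 3 of that group gave 0.66, and array weights gave 0.17. BTN2A1, its neighbour in gene order, differed by -0.039 ± 0.21, and the 2 spots of BTN2A2 by 0.020 ± 0.19 and -0.11 ± 0.19. These 3 genes are the measured part of 13 listed butyrophilins, and 0 of their 4 spots passed.

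**Figure D1:**
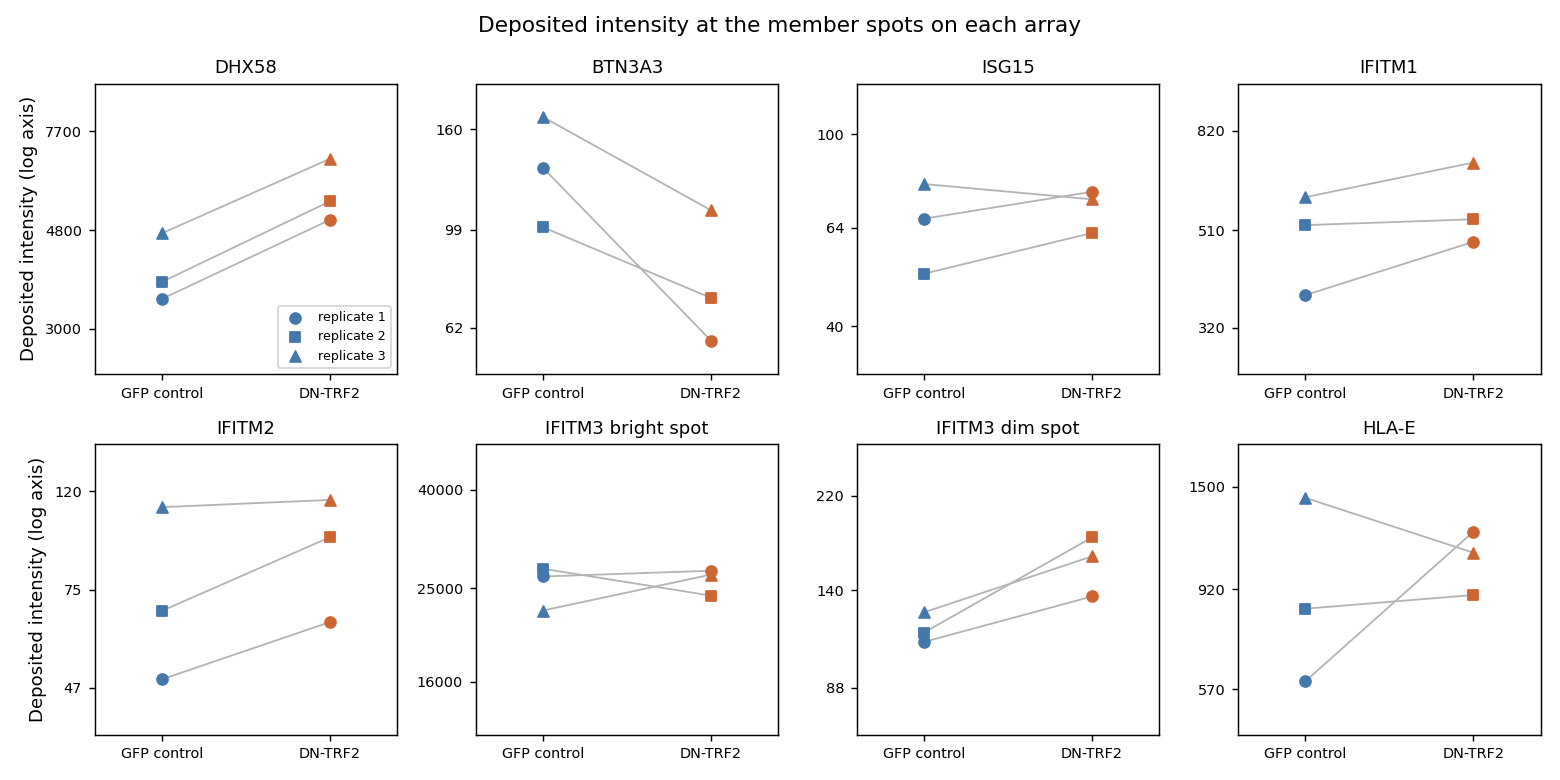
Deposited intensity (log axis, a different range in each panel but the same fold span) at the 8 member spots on the 3 GFP control and 3 DN-TRF2 arrays; lines join arrays of the same replicate number. All 3 lines rise for DHX58, IFITM1, IFITM2 and the dim IFITM3 spot, and all 3 fall for BTN3A3, while those of HLA-E cross.

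ISG15 encodes a ubiquitin-like protein that is joined to other proteins after interferon and is among the most strongly induced genes of that response. Its spot read 66.86, 51.41 and 78.88 in the GFP control samples and 76.02, 62.46 and 73.32 in the DN-TRF2 samples. The groups overlapped. The difference was -0.026 ± 0.14 (SE, log2), with a 95% interval from -0.35 to 0.30, and turned to 0.010 with median scaling and 0.065 without normalization. At percentile 7.5 of signal the spot read close to the offset of 50 on each array. The enzymes around ISG15 were measured in part: UBA7, which activates it, differed by 0.071 ± 0.22, and USP18, which removes it from its targets, by -0.15 ± 0.18. Neither passed (limma adjusted p = 0.999 for each); UBE2L6 and HERC5, the conjugating enzyme and ligase, are not analysed here.

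The 3 IFITM genes encode small membrane proteins that stop viruses from fusing with the cell, and their sequences are so alike that the clones may share labelled cDNA. IFITM1 lay near the middle of the array, at percentile 47.2, and read 374, 523 and 597 in the controls and 482, 537 and 704 in the DN-TRF2 samples. The groups overlapped. Each DN-TRF2 sample lay above the control of its own number in deposited intensity. After normalization the difference was 0.15 ± 0.15 (SE, log2), and by replicate number 0.24, -0.084 and 0.29. IFITM2 was dim, at percentile 8.9, and read 48.88, 67.77 and 111.17 against 64.25, 96.33 and 115.1. It was slightly higher in DN-TRF2 at each replicate number, by 0.17, 0.061 and 0.089, and the groups again overlapped. The difference of 0.11 ± 0.17 turned to -0.026 without GFP control replicate 1.

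The 2 spots annotated as IFITM3 lay at opposite ends of the signal range. The bright spot was among the 4 brightest of the array on each of the 6 arrays and the brightest on 3 of them. It read 26413.61, 27409.52 and 22455.15 in the controls and 27149.96, 24106.86 and 26655.37 in the DN-TRF2 samples. Highest intensities on the arrays ran from 26655.37 to 28625.65, and whether the image was saturated there was not tested. Quantile normalization gave the spot the same value, 14.74, on the 3 arrays where it ranked first, so those arrays could not differ on that scale. Its difference was 0.071 ± 0.15 (SE, log2), with -0.021 under median scaling, and by replicate number 0.18, -0.23 and 0.26. As at IFITM1, the difference at replicate number 2 was the negative one.

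The dim IFITM3 spot, at percentile 16, read 109.54, 114.55 and 126.14 in the controls and 136.08, 180.43 and 164.81 in the DN-TRF2 samples. In deposited intensity the 3 DN-TRF2 samples lay above the 3 controls, which was so at 3.01% of all spots counting both directions; after normalization the groups overlapped. The difference was 0.24 ± 0.15 (SE, log2), and by replicate number 0.13, 0.24 and 0.33. It was 0.32 at an offset of 1 and 0.19 at an offset of 100, and it stayed positive in each of the 13 alternatives that kept it. All 4 IFITM spots had a higher mean in DN-TRF2 samples, except the bright IFITM3 spot under median scaling and IFITM2 without GFP control replicate 1. Because the clones may share cDNA, these 4 spots are not 4 separate measurements.

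**Figure D2:**
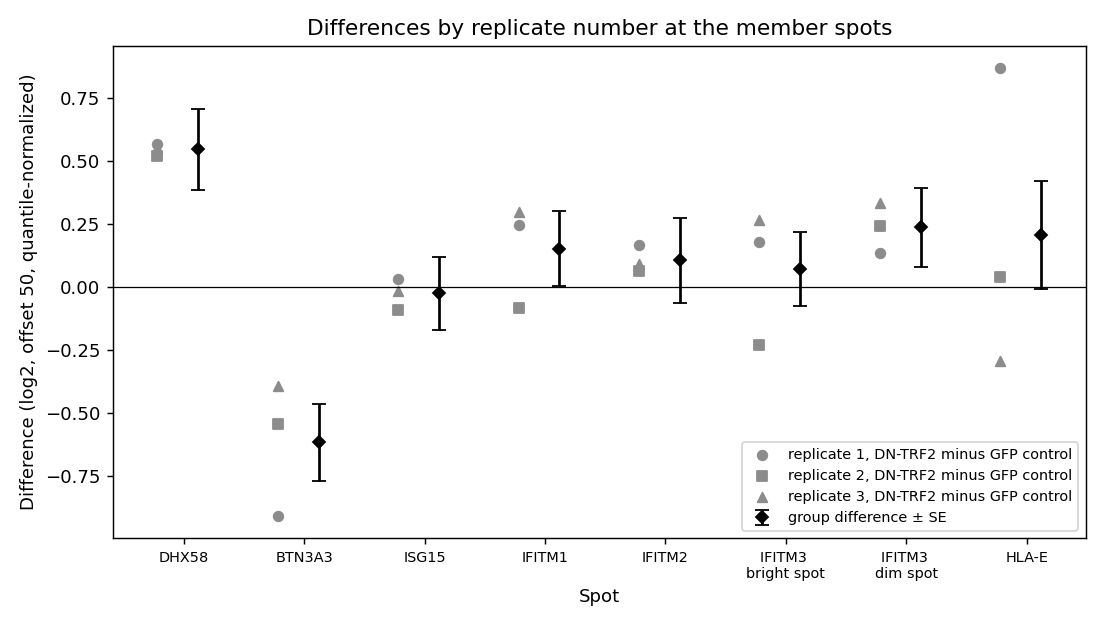
Difference between DN-TRF2 and GFP control (log2 of intensity + 50, quantile-normalized) at each member spot. Grey symbols give the difference at each of the 3 replicate numbers and black diamonds the group difference with its SE; DHX58 lies at 0.55 with its 3 values close together, while HLA-E runs from 0.87 to -0.29.

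HLA-E encodes a non-classical class I molecule that shows signal peptides of other class I molecules to natural killer cells. Its spot read 592, 838 and 1423 in the GFP control samples and 1209, 894 and 1095 in the DN-TRF2 samples. In deposited intensity the lowest and the highest value of the 6 were both controls, while after normalization the highest was DN-TRF2 replicate 1. By replicate number the difference was 0.87, 0.040 and -0.29, so the sign was not shared. The group difference was 0.20 ± 0.21 (SE, log2; 95% interval from -0.27 to 0.68). Leaving out DN-TRF2 replicate 1 gave 0.030, leaving out GFP control replicate 3 gave 0.39, and array weights gave -0.0080.

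Other genes of class I presentation gave no call and went both ways. Of 15 measured genes of class I presentation, 5 had a higher and 10 a lower mean, with a median difference of -0.037 against -0.0070 over all 6255 named genes. Without GFP control replicate 1 the count of higher genes was 10, and it was 3 without DN-TRF2 replicate 1 and with median scaling. HLA-B differed by 0.016 ± 0.24 and HLA-F by -0.026 ± 0.17. The 4 HLA-C spots gave -0.037, 0.16, -0.0087 and -0.17, from the brightest to the dimmest, with SEs of 0.17 to 0.25. The HLA heavy chains are close copies, so these spots, like that of HLA-E, cannot be assigned to a single gene with certainty.

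TAP1 and TAP2, which form the peptide transporter, differed by -0.19 ± 0.16 each. The immunoproteasome subunit genes PSMB8 and PSMB10 differed by 0.13 ± 0.19 and -0.037 ± 0.14, and PSME1 and PSME2, subunits of the proteasome activator, by -0.087 ± 0.16 at the brighter PSME1 spot and 0.027 ± 0.14. Chaperones of class I folding went different ways: CANX differed by -0.14 ± 0.14, and CALR by 0.21 ± 0.17, 0.045 ± 0.15 and -0.15 ± 0.14 at its 3 spots. PDIA3, the disulfide isomerase of the loading complex, read 198.6, 135.92 and 323.57 in the controls and 106.53, 139.99 and 189.12 in the DN-TRF2 samples, with a difference of -0.51 ± 0.18. This was the smallest p of the list (limma adjusted p = 0.999), and the deposited values of the groups overlapped. None of the 21 spots passed.

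**Figure D3:**
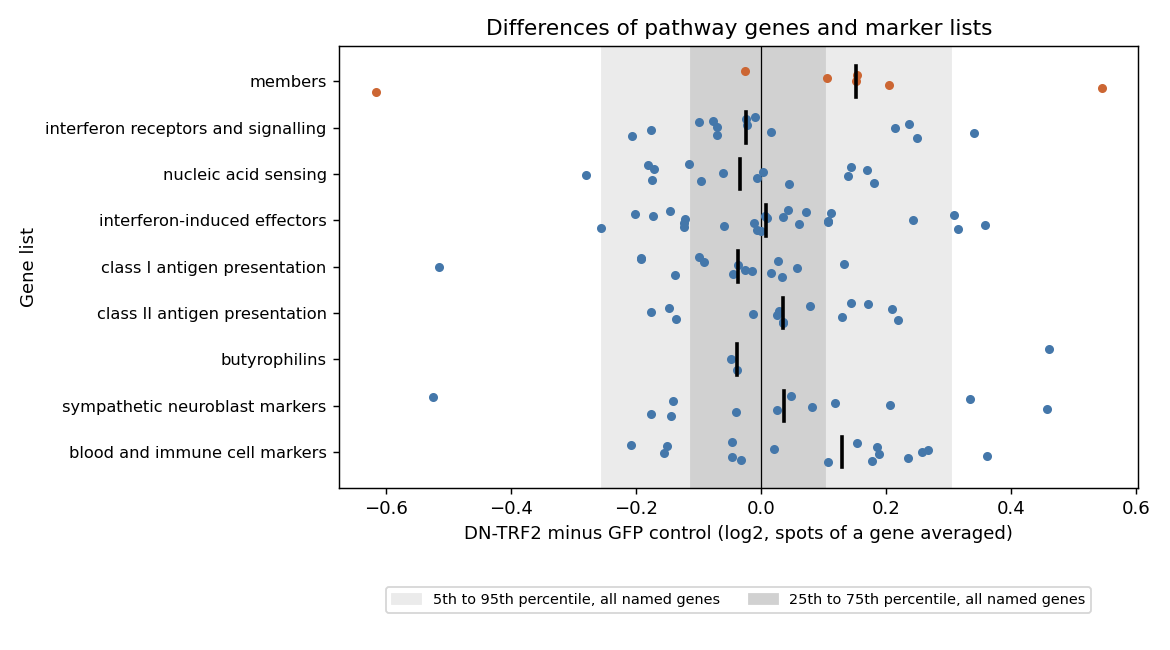
Difference between DN-TRF2 and GFP control (log2, spots of a gene averaged) for each measured gene, by list, with a black bar at each list's median. Shaded bands hold the middle of all named genes; the 7 members span -0.62 to 0.55, and the medians of the 6 interferon and antigen lists lie between -0.039 and 0.035.

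Genes upstream of the response gave no call. Of 14 measured genes of interferon receptors and signalling, 5 had a higher mean (8 without GFP control replicate 1), and the median was -0.023. IFNAR2, a chain of the type I receptor, differed by 0.25 ± 0.26, and IFNGR1 and IFNGR2, the chains of the type II receptor, by -0.21 ± 0.17 and -0.071 ± 0.16. TYK2, the kinase bound to the type I receptor, differed by -0.0088 ± 0.19. The factor genes IRF1 and IRF3 differed by 0.015 ± 0.15 and 0.21 ± 0.23, but IRF1 read no more than 12.5 on any array near the stand-in value of 10 that blank positions hold. Of the 2 genes with the smallest p in this list, IL10RB, a receptor chain shared with interferon lambda, gave 0.34 ± 0.19, and STAT3 gave 0.053, -0.22 and 0.094 at its 3 spots. STAT2, IRF7 and IRF9 are not analysed here.

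DHX58 acts beside other sensors of nucleic acid, of which 6 of 14 measured genes had a higher mean (median -0.033). MAVS, the mitochondrial adaptor through which RIG-I signals, read 4199, 3133 and 4166 in the controls and 3141, 2757 and 3082 in the DN-TRF2 samples. It was lower at each of the 3 replicate numbers, and the difference was -0.28 ± 0.17. TRIM25, the ligase that acts with RIG-I, differed by -0.11 ± 0.19, IFI16, a DNA sensor, by 0.14 ± 0.14 at a very dim spot, and ATG12, a conjugate that restrains the RIG-I pathway, by 0.23 ± 0.20 and 0.13 ± 0.14. None of the 15 spots passed (limma adjusted p = 0.999 for MAVS, the smallest p of the list). RIGI and IFIH1, the sensors that LGP2 modulates, are not analysed here.

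Interferon-induced effector genes other than the members were split evenly. Of 24 measured, 13 had a higher and 11 a lower mean, with a median of 0.0080, and 4 genes were higher and 4 lower at all 3 replicate numbers. Of all 6255 named genes, 722 were higher and 951 lower at all 3. IFI27, a mitochondrial protein gene strongly induced by interferon alpha, read 98.26, 60.34 and 138.59 in the controls and 130.43, 142.9 and 176.71 in the DN-TRF2 samples. It was higher at each replicate number, with a group difference of 0.36 ± 0.15 at a dim spot, the only spot of 32 with an unadjusted p under 0.05 (limma adjusted p = 0.999). Other strongly inducible genes gave smaller values: IFIT1 0.11 ± 0.14, IFIT3 0.069 ± 0.18 and 0.15 ± 0.17, OAS1 0.035 ± 0.22, IFI35 0.060 ± 0.16 and GBP1 -0.060 ± 0.15. IFI6 differed by -0.091 ± 0.20 at its brighter spot, while its other spot read 10 or less on all 6 arrays. LGALS3BP, a secreted glycoprotein gene, gave 0.0011, -0.027 and -0.34 from its brightest to its dimmest spot. MX1, RSAD2 and BST2 are not analysed here.

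Class II presentation genes, which interferon gamma can induce outside immune cells, had 10 of 14 measured genes with a higher mean and a median of 0.035. The count was 6 without GFP control replicate 1. HLA-DRB3 and HLA-DPB1 are named for the smallest p of this list, in which 4 of the 14 genes had a lower mean, down to -0.18. HLA-DRB3 differed by 0.41 ± 0.15 at its dimmer spot and by 0.0089 ± 0.15 at the other. At that dimmer spot the value was 0.60 at an offset of 1 and 0.31 at an offset of 100. HLA-DPB1 differed by 0.27 ± 0.14 at its dimmest spot and by -0.11 ± 0.18 and -0.081 ± 0.16 at the brighter ones. Class II genes, too, are close copies, and the spots within a gene did not give one value. The 6 lists together held 84 measured genes on 109 spots. Of the 84, 40 had a higher mean (47.6%, against 48.0% of all named genes). By limma 0 of the 109 spots passed and 3 (2.75%) had an unadjusted p under 0.05, where 3.41% of all spots did.

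Blood and immune cell markers were examined because interferon and presentation genes are abundant in such cells. Of 44 listed markers 16 had a spot. Of these, 10 had a higher mean (62.5%), with a median difference of 0.13. Over all named genes 48% had a higher mean, with a median of -0.007. With 1 array left out the count of 10 ran from 9 to 14. The list's mean level lay between 8.85 and 9.12 (log2) on the control arrays and between 9.06 and 9.20 on the DN-TRF2 arrays, and 0 of its spots lay at or under 10 on all arrays. The smallest p belonged to CD7, a T cell surface protein gene, with 0.54 ± 0.17 at its dimmer spot and 0.18 ± 0.20 at the other (limma adjusted p = 0.999 for each). LCK, a T cell kinase gene with the next smallest p, differed by 0.27 ± 0.16. Both genes are named for their p alone, and 6 of the 16 genes had a lower mean, down to -0.21. PTPRC and CD3E are not analysed here. The samples were cultures of 1 established line, and the part of these markers in the members' differences was not tested.

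Some spots had nearly the same pattern over the 6 arrays as a member. Likeness was taken as the root mean square difference of log2 values centred on each spot, searched over 8450 named spots of other genes, with a median over these of 0.37 for DHX58. The closest to DHX58 were CTSL, a lysosomal cathepsin gene (0.075), PTN, a secreted growth factor gene (0.080), and H2BC15, a histone gene (0.11). Each was higher in DN-TRF2 samples, by 0.52 ± 0.14, 0.60 ± 0.14 and 0.53 ± 0.14 in that order. The search used the same 6 arrays, so a difference near that of the member follows from how these spots were picked. For ISG15 the closest were EDC3 (0.029), STX3 (0.032) and UBE2V2 (0.032), with differences of -0.0070, -0.012 and -0.044, where the median likeness over all spots was 0.21. Over 6 arrays such likeness is a description only.

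**Figure D4:**
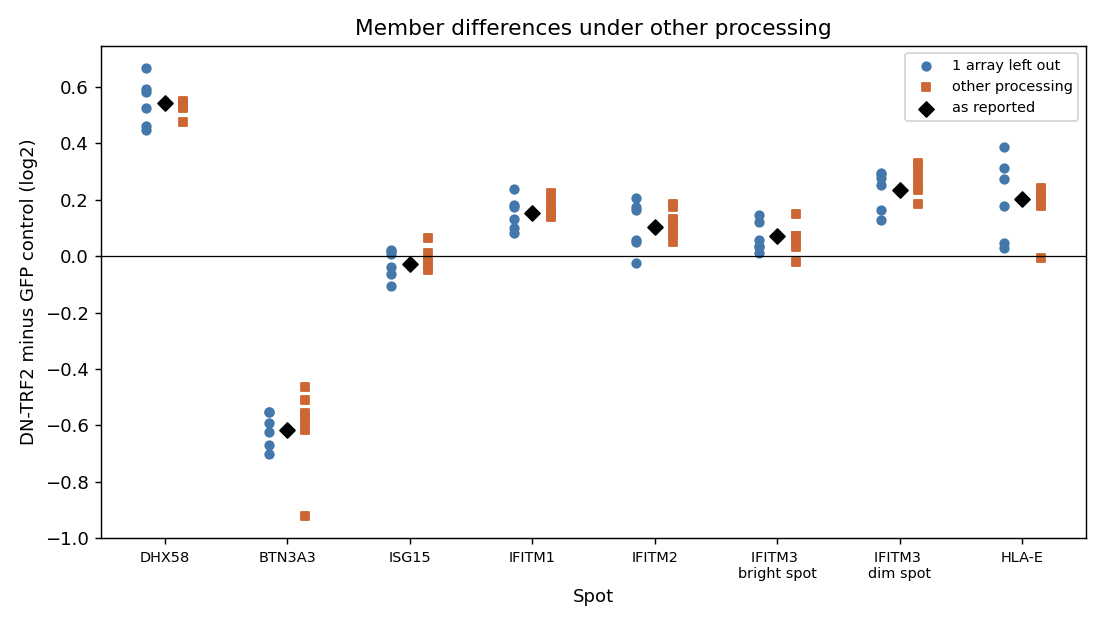
Difference between DN-TRF2 and GFP control (log2) at each member spot as reported (black diamonds), with 1 array left out (circles) and under the other processing settings (squares). DHX58 stays between 0.45 and 0.67 and BTN3A3 between -0.92 and -0.46, while ISG15 lies on both sides of 0.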

How the data were processed

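The authors deposited 1 linear intensity per spot and array for 9600 cDNA spots; per the labels' protocols, cDNA made from about 5 µg of total RNA carried a radioactive label. The sources used here do not state the imaging software, background treatment or scaling. The value 10 recurs in the deposited intensity as a stand-in: the 384 positions at each 25th spot, taken as blanks, were dropped, as were 47 others at 10 throughout, leaving 9169.

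Spots were named through the platform annotation and gene ID (RefSeq table of GRCh38.p14; 8514 of 8517 annotated spots matched); 8451 tested spots had 1 gene, 21 several and 697 none listed. An offset of 50 was added, log2 taken and arrays quantile-normalized. Each spot was tested with limma 3.58.1 in R 4.3.3 (lmFit, eBayes, two-sided, Benjamini-Hochberg over all spots, threshold 0.05). On simulated arrays the fit recovered 71 of 100 spots changed by 1 on the log2 scale and 96 of 100 changed by 2. It also called 3 unchanged spots. The simulated noise was independent between arrays and the normalization step was left out, so neither shared deviations nor normalization were tested. P-values measure the spread between these samples.

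Arrays of the same replicate number deviated together from their group means (correlations of 0.39, 0.296 and 0.246). Arrays of unlike number were not compared in this way, so whether the numbers pair the samples was not settled. All printed errors and p-values are from the fit without pairing, and the replicate block is an alternative. For lists, spots of a gene were averaged and members left out; no set test was run. Members, lists and tests were chosen with earlier results of these data known. Named are all member spots, 32 of 57 central pathway genes picked by role that had a spot, and up to 2 genes of smallest p per list. For DHX58 and ISG15 the 3 most alike spots are named. Outside this rule, CHGA and GAP43 are named for a limma unadjusted p under 0.05. The genes under the last heading were picked after their values were seen. Alternatives were median scaling, no normalization, offsets of 1 and 100, leaving out the dimmest quartile, a correction for spot order, array weights, the replicate block and leaving out each array.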

Additional observations from a re-analysis of the deposited data

How the results depend on the processing

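With the replicate number as a block, and in every other alternative but 1, 0 spots passed limma's adjusted p. At an offset of 1 a single spot passed, annotated BOP1, which read 10 on all 3 DN-TRF2 arrays and 0.22, 1.36 and 0.56 on the controls; 10 is the stand-in value. Between 6 and 7 member spots had a higher mean with 1 array left out. Without the dimmest quartile 4 of the 8 member spots remained, 1 of which shared a sign at all replicate numbers. That filter also left fewer genes to count, so that those with a higher mean came to 2 for nucleic acid sensing, 8 for effectors, 3 for class I, 6 for class II and 6 for immune markers. Median scaling gave 3 higher genes for class I, and no normalization gave 3 for butyrophilins.

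With 1 array left out, higher genes ran from 5 to 8 for receptors and signalling, 4 to 7 for sensing, 10 to 15 for effectors, 3 to 10 for class I, 6 to 12 for class II, 1 to 2 for butyrophilins, 5 to 8 for neuroblast markers and 9 to 14 for immune markers. Leaving out an array leaves 2 replicate numbers, at which 4386 to 4915 of all spots and 5 to 6 member spots shared a sign, against 2363 and 4 with all 3. The cause of the other changes was not tested. Signal over background could not be measured, since blank positions hold the stand-in.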

Other observations

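Within the 6 interferon and antigen lists, spots in the dimmest quartile of signal had a higher mean in DN-TRF2 samples at 20 of 31, against 8 of 25, 11 of 24 and 13 of 29 in the quartiles above it. Over all spots the share was 45.0% in the dimmest quartile and 54.0% in the brightest. Of the 19 list genes with several spots, 11 had spots that differed in sign. Chemokine genes that interferon induces went both ways: CCL5 differed by 0.31 ± 0.23 at a bright spot, CXCL10 by -0.26 ± 0.22 and CXCL11 by -0.063 ± 0.21 and -0.18 ± 0.15 (SE, log2). TRIM14, an adaptor of the MAVS pathway, differed by 0.31 ± 0.16, and ISG20, an exonuclease gene induced by interferon, by 0.30 ± 0.16 and 0.18 ± 0.16 at its 2 spots. None passed limma's test over all spots, and these genes were picked after their values were seen.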
